A study of Mus musculus with 4 samples.

Results

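The proliferin genes Prl2c2, Prl2c3 and Prl2c5 were followed in total RNA of mouse embryonic fibroblasts (MEF cells), connective tissue cells grown from mouse embryos, that were left untreated or were exposed to 50 µM genistein, a plant isoflavone, for 24 h. They are 3 of the 47937 gene rows in the count table, taken by their symbols, and 2 of the 3 had any counts. The set was chosen on the strong fall of Prl2c2 between the same untreated and genistein libraries that are described here, with the others added as its near-identical relatives, so the fall is given as a description and was not tested. Each group held 2 libraries of ribosomal RNA-depleted RNA, the untreated cells were labelled wild-type, no genetic change was named for the treated cells, and the labels call the controls both control and untreated, while the study's methods for other assays describe untreated cells as given DMSO alone, the solvent of genistein. All 4 libraries carry the same cell line name, and nothing in the labels says that replicates came from separate cultures, so the errors below may be technical.

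Proliferins are secreted glycoproteins of the prolactin and growth hormone family, which in mice has expanded into many placental hormones. They are best known from trophoblast giant cells of the placenta, where they act on blood vessel growth, and from cultured mouse fibroblasts, where their RNA is induced when resting cells are given serum or growth factors. The protein binds the cation-independent mannose 6-phosphate receptor, which is encoded by Igf2r. The fibroblast promoter is a textbook case of a DNA element at which the AP-1 factors Jun and Fos and the glucocorticoid receptor all act.

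The 3 genes lie on chromosome 13 and spread over 1 stretch (mouse build GRCm38, GENCODE M21 annotation). Prl2c3 (ENSMUSG00000056457) occupies chr13:12790816-12800079 on the minus strand. Prl2c2 (ENSMUSG00000079092) occupies chr13:12996125-13005383 on the minus strand, 196 kb away. Prl2c5 (ENSMUSG00000055360) occupies chr13:13182715-13191923 on the plus strand, a further 177.3 kb on. Each is protein-coding with a main transcript of 5 exons, and no other annotated gene overlaps any of them, on either strand.

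Their sequences decide how far single genes can be told apart by reads. The coding sequences of Prl2c2 and Prl2c3 were both 672 bases long without the stop codon and differed at 3 positions, an identity of 99.55%. Counted from the first base of the start codon, with the Prl2c2 base first, these were T14C, C200A and T319G. Prl2c5 was more distant, with a coding identity of 96.13% to Prl2c2 and 95.98% to Prl2c3. The stretch from coding base 287 to 376 of Prl2c2 is shown because it holds the third of these positions and 7 others that set Prl2c5 apart. Capitals mark the 8 positions at which the 3 genes are not all the same (GENCODE M21 transcripts, sense strand).
Prl2c2: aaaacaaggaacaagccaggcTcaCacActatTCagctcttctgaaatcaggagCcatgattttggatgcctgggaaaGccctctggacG
Prl2c3: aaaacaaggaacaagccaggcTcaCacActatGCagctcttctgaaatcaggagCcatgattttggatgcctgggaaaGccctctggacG
Prl2c5: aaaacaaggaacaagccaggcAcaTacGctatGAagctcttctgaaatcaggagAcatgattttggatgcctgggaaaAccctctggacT

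Reads of the study were 150 bases long, so each main transcript was cut into all windows of that length and each window was looked for in the annotated transcripts of every other gene. Of the 693 windows of Prl2c2, 353 (50.94%) were also present in Prl2c3, and of the 708 windows of Prl2c3, 353 (49.86%) were present in Prl2c2. They fell in 2 blocks, and the larger one, of 317 windows, ran through the 3′ part of the transcripts. Some of the shared windows also occurred in the pseudogene Gm7040. None of the 695 windows of Prl2c5 occurred in another gene. Reads of Prl2c5 could therefore be told apart over its whole length, while about as many read positions of Prl2c2 and Prl2c3 were shared as were their own. This counts single reads of full length, whereas the study's reads were paired and trimmed, so the share of reads in doubt may differ. How the counter divided reads that fit both genes was not given in the sources used here, so the split between Prl2c2 and Prl2c3 is uncertain and their sum is given as well.

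**Figure D1:**
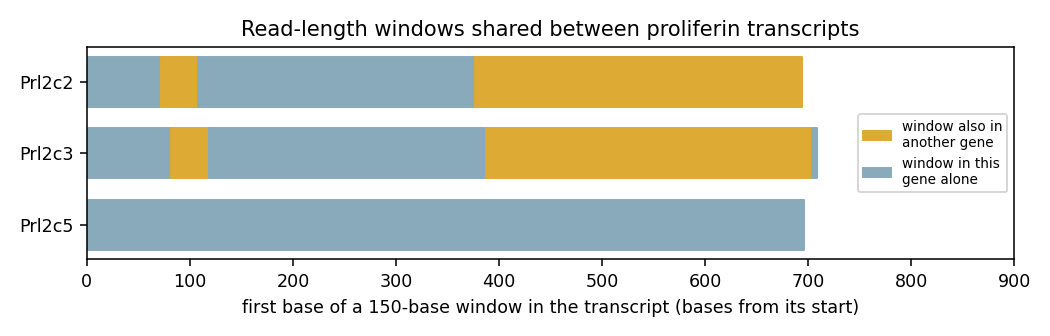
Windows of 150 bases along the main transcript of each proliferin gene, placed by their first base; yellow windows also occur in an annotated transcript of another gene and blue ones do not. Prl2c2 and Prl2c3 each have 353 shared windows, and Prl2c5 has none.

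The 250 bases before the transcription start are shown for Prl2c3 and Prl2c5 (RefSeq, GRCm38.p6), because Prl2c3 was read in untreated cells and Prl2c5 was not. The table of promoters used here matched 2 of the 3 genes, the third being Prl2c2. Prl2c3 is from chr13:12800080-12800329 on the minus strand and Prl2c5 from chr13:13182466-13182715 on the plus strand. Both are written 5′ to 3′ in the direction of transcription. Capitals mark bases that differ between them or have no partner in the alignment.
Prl2c3: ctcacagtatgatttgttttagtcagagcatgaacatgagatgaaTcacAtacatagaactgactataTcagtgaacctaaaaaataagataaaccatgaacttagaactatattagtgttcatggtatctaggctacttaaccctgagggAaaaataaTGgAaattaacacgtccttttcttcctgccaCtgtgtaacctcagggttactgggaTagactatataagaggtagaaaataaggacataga
Prl2c5: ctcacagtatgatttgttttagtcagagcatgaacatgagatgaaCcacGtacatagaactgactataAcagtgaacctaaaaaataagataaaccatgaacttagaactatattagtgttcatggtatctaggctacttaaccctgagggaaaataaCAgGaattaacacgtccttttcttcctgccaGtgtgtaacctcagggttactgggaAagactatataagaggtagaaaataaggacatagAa

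The 2 promoters were 96.02% identical, with 8 differing bases and 2 unpaired ones. Letters of known motifs were then looked for on both strands, with a choice of motifs made after the sequences had been seen. The AP-1 letters TGANTCA occurred 1 time in Prl2c3, as TGAATCA starting 209 bases before the start, and 0 times in Prl2c5, which differs inside that match (T46C, counted from 1 at the 5′ end of the Prl2c3 window, Prl2c3 base first). In this pattern N stands for any base, and the middle base of the match is A. Narrower spellings of the AP-1 site were not counted apart. Of 32851 mouse promoters of the same length, 6.75% held the pattern with any middle base. Both promoters held TATATAAG, at 30 bases before the start in Prl2c3 and 31 in Prl2c5, against 0.935% of all promoters. The TATAAA letters (12.4% of all promoters), the CArG box bound by serum response factor (1.47%), the glucocorticoid receptor letters TGTTCT (16.1%) and CCAAT (33.8%) were not found in these windows. No match overlapped another, and a match of letters is not a measured binding site. Sites spelled otherwise than these letters were not looked for. Whether either window holds the known proliferin element was not tested.

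Prl2c2, often called simply proliferin, carried nearly all of the reads. Without genistein the raw read counts were 319 and 352, and with it they were 21 and 14. Both genistein values lay below both untreated values. The exact 95% Poisson intervals of the counts, which cover counting error only, ran from 285 to 391 over the untreated and from 7.65 to 32.1 over the genistein libraries. A normalised read count is the count divided by the scaled library size and multiplied by the mean scaled library size. On that scale Prl2c2 fell from 346 ± 38.2 to 16.9 ± 3.90 (SD, n = 2). This was a log2 fold change of -4.33 with a standard error of 0.18, or 20.1-fold lower, and genistein left 4.90% of the untreated level. Among the 16240 genes that passed the filter on low counts, 3 had a more negative fitted value, 1 of which was Prl2c3 through its counts of 0. That place and the separation of the groups follow from how the set was chosen, so nothing is read from them.

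Prl2c3 was a minor part of the signal. It had raw counts of 33 and 29 without genistein and 0 in both libraries with it. The groups did not overlap. Nothing is read from this, because the set was chosen on this contrast and the share of all entries that separate is not given here. A floor of 3 counts per library was set for a count of 0, which is below the 95% Poisson limit of 3.69. At that floor Prl2c3 was 10.9-fold lower with genistein. Its mean was 1.06 CPM (read counts scaled by library size) in the untreated libraries against a floor of 0.0978 CPM. This ratio is not a 95% bound, because the Poisson limit is higher and the counting error of the untreated counts was left out. If Prl2c3 had fallen in the same proportion as Prl2c2, 1.66 counts would have been left in genistein 1 and 1.54 in genistein 2, or 3.20 over both, where 0 were read. The sum lies close to the floor, and whether the falls of Prl2c2 and Prl2c3 differed was not tested.

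Prl2c5 had 0 counts in each of the 4 libraries. At 3 counts per library this allows up to 0.106 CPM, and no fold change can be given. Its reads cannot have been shared out to Prl2c2 or Prl2c3 through identical windows of full read length, since it has none. It did not pass the filter on low counts, while Prl2c2 and Prl2c3 passed it through the untreated libraries in which they were higher.

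**Figure D2:**
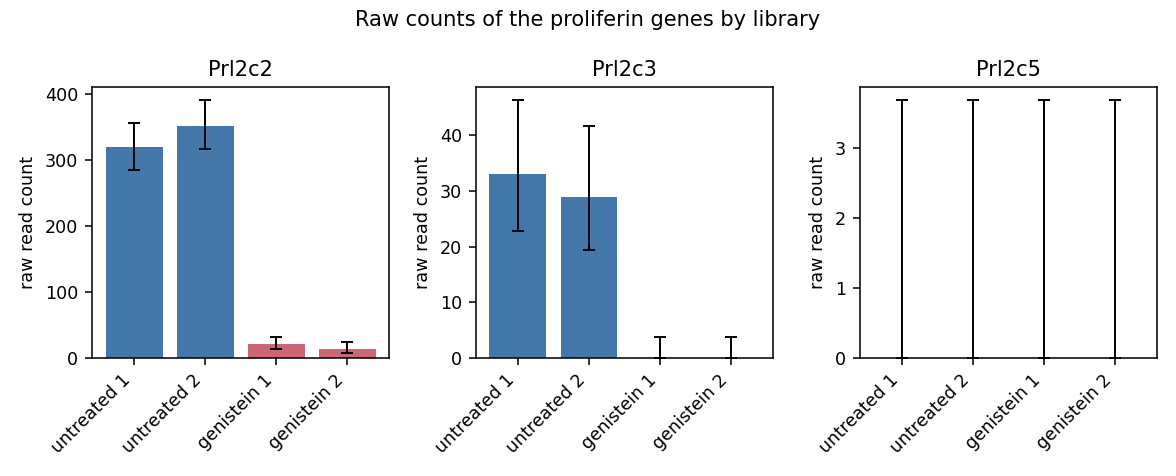
Raw read counts of Prl2c2, Prl2c3 and Prl2c5 (vertical axes, each from 0 and on its own scale) in the 2 untreated (blue) and 2 genistein (red) libraries; whiskers are exact 95% Poisson intervals, which cover counting error only. Prl2c2 has 319 and 352 against 21 and 14 counts, Prl2c3 has 33 and 29 against 0 and 0, and Prl2c5 has none in any library.

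The sum of the 3 genes does not depend on how counted reads were divided among them. Reads that the counter left out or gave to another gene would still be missing from it. In raw counts it was 352 and 381 without genistein and 21 and 14 with it. Its normalised count was 377 ± 36.6 in untreated and 16.9 ± 3.90 in genistein-exposed cells (SD, n = 2), with a log2 fold change of -4.46, a standard error of 0.17 and a 22.0-fold lower level. The lower genistein library weighed on this value, which was -4.72 without genistein 1 and -4.25 without genistein 2. Its sign was negative in every fit described here. Across all 17358 kept genes and repeats, 36.0% were called lower and 36.2% higher at an adjusted p-value under 0.05, and 3.92% were lower past all 3 of the thresholds that the study used, which also ask for a log2 fold change beyond 1 and a mean normalised count over 100. Nothing is read from these shares for the proliferin genes, because they were chosen on this contrast.

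The composition of the family signal was compared as shares of the summed counts. Prl2c2 made up 90.6% of the summed counts in untreated 1 (Wilson 95% interval 87.1% to 93.2%) and 92.4% in untreated 2 (89.3% to 94.6%). The intervals overlapped. Prl2c2 took all 21 and all 14 of the counts in the genistein libraries, with lower limits of 84.5% and 78.5%. In each library taken alone, those limits reach below the untreated shares, and a shift in composition was not tested.

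Levels are also given per kilobase of annotated exon, as a description, since the untreated libraries were part of the contrast on which the genes were chosen. Prl2c2 stood at 9.77 and 11.4 CPM per kilobase and Prl2c3 at 0.810 and 0.755. Prl2c2 was above 69.6% and Prl2c3 above 19.6% of 16161 kept genes with an annotated length, around a median gene level of 4.84 CPM per kilobase. The order Prl2c2, Prl2c3, Prl2c5 held in both untreated libraries, and each step was wider than the difference between them. In the genistein libraries Prl2c2 averaged 0.519 CPM per kilobase, above 12.3% of the same genes.

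The matched members of the wider prolactin family were otherwise nearly silent in these fibroblasts. Of 24 other family members listed, 23 were matched to the table and 16 of these had 0 counts in every library. Prl2c4 was not matched, because the annotation used here holds no gene of that symbol, so its counts were not seen. None of the 23 reached 10 counts in a library, and none was tested. Prl7a1 had the most, with 5 and 3 counts without genistein and 5 and 3 with it. Prl2c1, a relative on the same chromosome with 91.469% identity to Prl2c3 over its transcript, had 0 counts throughout. Prl7d1, which encodes proliferin-related protein, a secreted inhibitor of blood vessel growth, had 3, 1, 1 and 0. The pseudogene Gm7040, 98.194% identical to Prl2c3 over its 443 bases, had no matched row in the count table. Whether reads from it entered the proliferin counts was not tested.

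Because proliferins are placental hormones, markers of trophoblast and other cells were looked at beside them. Of 12 trophoblast markers, 9 had 0 counts in all libraries, among them the defining factors Hand1, Gcm1, Elf5 and Cdx2 and the spongiotrophoblast marker Tpbpa. Eomes had 14, 8, 6 and 4 counts and Ascl2 had 0, 0, 1 and 2. Plac1, a placenta-enriched gene, was the exception, at 276 and 270.0 normalised counts without genistein and 58.1 and 70.9 with it (log2 fold change -2.08, standard error 0.13, adjusted p = 4.1e-10, edgeR). The summed normalised counts of the list, nearly all from Plac1, were 278 to 290 in untreated and 64.7 to 76.9 in genistein-exposed cells.

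Among markers of other cell types, the basal keratin gene Krt14 moved in the same direction. It stood at 711 and 668 normalised counts without genistein and 114 and 100.2 with it (log2 fold change -2.68, standard error 0.09, adjusted p = 3.6e-13, edgeR). Of the 9 markers in that list, 2 passed the filter on low counts. The epithelial marker Epcam and the macrophage marker Adgre1 had 0 counts, and the summed normalised counts were 724 to 759 in untreated and 162 to 167 in genistein-exposed cells. Plac1 and Krt14 were singled out after their values were seen, and their part in the proliferin result was not tested. In bulk RNA, fewer cells that make a transcript and less of it in each cell cannot be told apart.

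The cells carried the collagen and matrix genes of fibroblasts. Of 10 fibroblast markers, 7 were tested, with 2 higher and 5 lower. Over all kept genes and repeats, 36.2% were called higher and 36.0% lower. The median log2 fold change of the tested markers was -0.24, against 0.02 over all kept genes and repeats. The small matrix proteoglycan gene Dcn was higher (1.08, standard error 0.05), and Col1a2, S100a4 and Col3a1 were lower, by -0.50, -0.34 and -0.31 on the log2 scale. The largest adjusted p among these 4 was 8.6e-06 (edgeR). The surface marker Thy1 had 0 counts in every library, Fap had 1 count in 1 library, and Lum had at most 10, so these markers of fibroblasts were absent or nearly so. The summed normalised counts of the list were 425903 to 437675 in untreated and 407110 to 416311 in genistein-exposed cells.

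Genes linked to proliferin were then compared by role, from lists written with earlier results of these data known. The test was edgeR's quasi-likelihood test across all kept genes and repeats with Benjamini-Hochberg adjustment, and a gene is called higher or lower at an adjusted p-value under 0.05. With 36.0% and 36.2% of all entries called lower and higher, passing the threshold sets few genes apart, so sizes are given with the counts.

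The receptor side was measurable. Igf2r, the receptor that binds proliferin and also clears insulin-like growth factor 2, was at 5349 and 5389 normalised counts without genistein and at 9459 and 9597 with it. Its log2 fold change was 0.83 (standard error 0.04, adjusted p = 8.6e-12, edgeR). The prolactin receptor gene Prlr had 0 counts in every library. Of 9 receptor and relay genes, 8 were tested, with 5 higher, 2 lower and 1 not past the threshold, and a median log2 fold change of 0.23. The growth hormone receptor gene Ghr rose by 0.55 (standard error 0.06, adjusted p = 1.5e-07, edgeR) and the cytokine feedback gene Cish by 0.82 (standard error 0.14, adjusted p = 4.8e-05, edgeR). M6pr, the other mannose 6-phosphate receptor, fell by 0.31 on the log2 scale (standard error 0.04, adjusted p = 3.4e-06, edgeR). Socs2, another feedback gene of this pathway, differed by -0.12 (adjusted p = 0.32, edgeR).

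The RNA of most listed AP-1 family genes and of the glucocorticoid receptor gene rose. The list covers the wider AP-1 family and not only factors known from the proliferin promoter. The activity and binding of the proteins were not measured, and a link to the proliferin fall was not tested. Of 9 AP-1 and glucocorticoid receptor genes, 8 were higher and 1 was lower, with a median log2 fold change of 0.47. Jun had normalised counts of 1072 and 1133 in untreated and 1473 and 1582 in genistein-exposed cells (log2 fold change 0.47, standard error 0.05, adjusted p = 6.1e-07, edgeR). Fos rose from 206 and 219 to 447 and 410 (log2 fold change 1.01, standard error 0.09, adjusted p = 3.4e-08, edgeR). The gene of the glucocorticoid receptor, Nr3c1, rose from 2128 and 2092 to 3184 and 3276 (log2 fold change 0.61, standard error 0.04, adjusted p = 2.9e-10, edgeR), and Jund by 0.62.

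The exception was Fosl1, the AP-1 member typical of growth factor-stimulated fibroblasts. It had normalised counts of 420 and 432 in untreated and 292 and 232 in genistein-exposed cells, a difference of -0.70 on the log2 scale (standard error 0.10, adjusted p = 7.9e-06, edgeR). Fosb was scarce, with 13, 15, 45 and 24 raw counts. Its log2 fold change of 1.21 (standard error 0.33, adjusted p = 0.0040, edgeR) did not pass without genistein 1 (0.75, adjusted p = 0.14, edgeR) or with DESeq2 (1.20, adjusted p = 0.056).

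Growth factor receptors and their relay kinases went both ways. Of 12 genes, 4 were higher, 7 were lower and 1 did not pass, with a median log2 fold change of -0.15. The receptor for platelet-derived growth factor encoded by Pdgfrb fell from 2651 and 2654 to 1606 and 1592 normalised counts (log2 fold change -0.73, standard error 0.04, adjusted p = 5.5e-11, edgeR). Fgfr1, a fibroblast growth factor receptor gene, rose from 691 and 687 to 1454 and 1407 (log2 fold change 1.05, standard error 0.05, adjusted p = 3.3e-11, edgeR). Of the nuclear factors that answer serum, Srf fell by 0.58 on the log2 scale (standard error 0.04, adjusted p = 9.7e-10, edgeR) and its partner Elk1 rose by 0.67 (standard error 0.08, adjusted p = 7.3e-07, edgeR). Prkca, a protein kinase C gene, differed by -0.06 (adjusted p = 0.18, edgeR).

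Other secreted regulators of blood vessels were also mixed. Of 15 genes, 13 were tested, with 6 higher, 5 lower and 2 not past the threshold, and a median log2 fold change of 0.38. Vegfa, the main vessel growth factor, rose from 2342 and 2374 to 3777 and 3719 normalised counts (log2 fold change 0.67, standard error 0.04, adjusted p = 5.4e-11, edgeR). Vegfc, a lymphatic growth factor gene, fell from 266 and 282 to 143 and 120 (log2 fold change -1.05, standard error 0.11, adjusted p = 3.4e-07, edgeR). Of the inhibitors, Thbs2 rose by 1.09 (standard error 0.15, adjusted p = 6.7e-06, edgeR) and Serpinf1 fell by 0.80 on the log2 scale (standard error 0.03, adjusted p = 5.6e-12, edgeR). Angpt2 and Angptl4 differed by 0.38 and 0.24 (adjusted p = 0.17 and 0.40, edgeR).

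**Figure D3:**
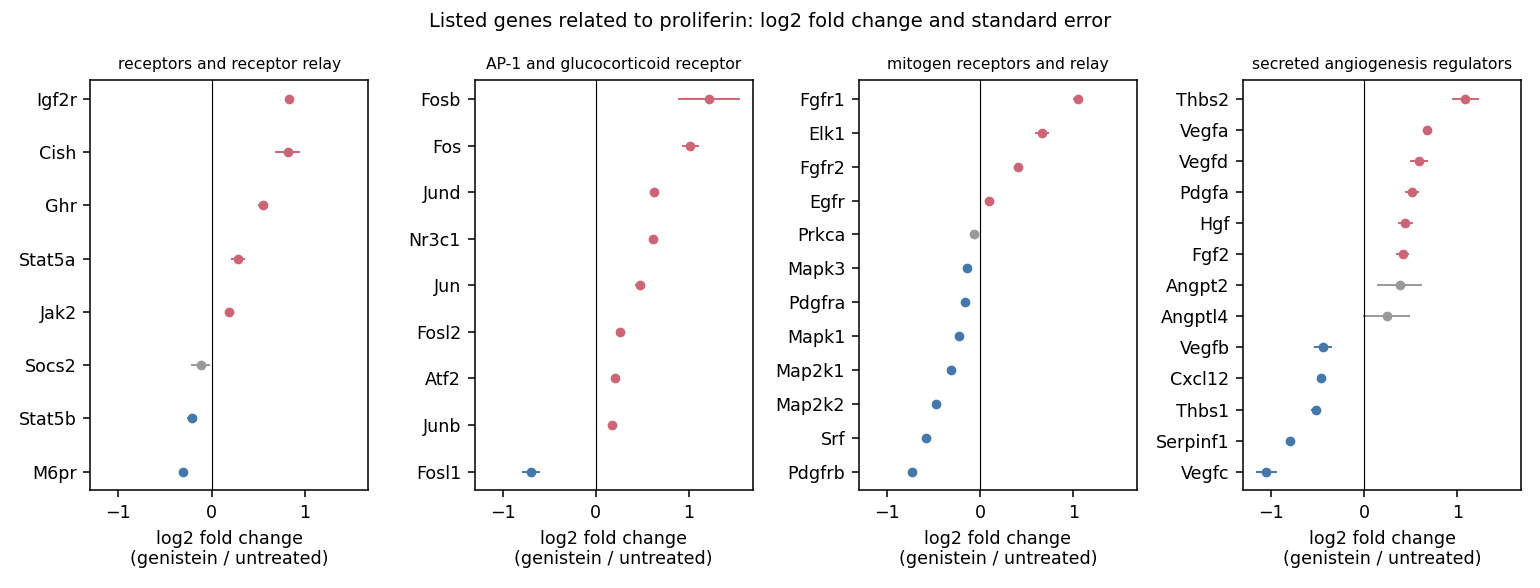
Log2 fold change of genistein over untreated (horizontal axis; bars are standard errors, 4 libraries) for the tested genes of 4 lists related to proliferin; red genes are called higher, blue lower, and grey did not pass an adjusted p-value of 0.05 (edgeR). All AP-1 genes except Fosl1, and Nr3c1, lie above 0, and all values lie between -1.05 and 1.21.

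The genes around the proliferin genes were compared to see how far the fall extended on the chromosome. Of 72 annotated genes that start within 1 Mb of a proliferin gene, 29 were matched to the table and 14 were tested, with 7 higher, 3 lower and 4 not past the threshold. Over all kept genes and repeats, 36.2% were called higher and 36.0% lower, so nothing is read from these counts of calls. The median log2 fold change of the 14 tested neighbours was 0.12. Leaving out pseudogenes and predicted genes, the nearest tested genes on either side were Ero1lb, of oxidative protein folding, and the lysosomal membrane gene Gpr137b. Ero1lb had normalised counts of 85.9 and 86.8 in untreated and 146 and 153 in genistein-exposed cells (log2 fold change 0.79, standard error 0.13, adjusted p = 5.7e-05, edgeR). Gpr137b had 532 and 619 against 869 and 885 (log2 fold change 0.61, standard error 0.07, adjusted p = 6.5e-07, edgeR). Both were higher where Prl2c2 was lower.

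The next genes outward were Lgals8, a galectin gene, at 0.68 (standard error 0.05, adjusted p = 1.2e-09, edgeR) and the basement membrane gene Nid1 at -0.22 (standard error 0.04, adjusted p = 0.00025, edgeR). The lowest value in the region was that of Heatr1, a ribosome biogenesis gene, which fell from 4804 and 4889 to 1677 and 1655 normalised counts (log2 fold change -1.54, standard error 0.04, adjusted p = 2.9e-15, edgeR). Heatr1 and Lgals8 overlap at their ends, so reads there are uncertain between them. Heatr1 was the only tested neighbour past all 3 thresholds of the study. The predicted pseudogene Gm2423, the tested gene nearest to Prl2c5, was at -0.67 (standard error 0.06, adjusted p = 6.7e-08, edgeR), and as a processed copy it may share reads with its parent gene.

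**Figure D4:**
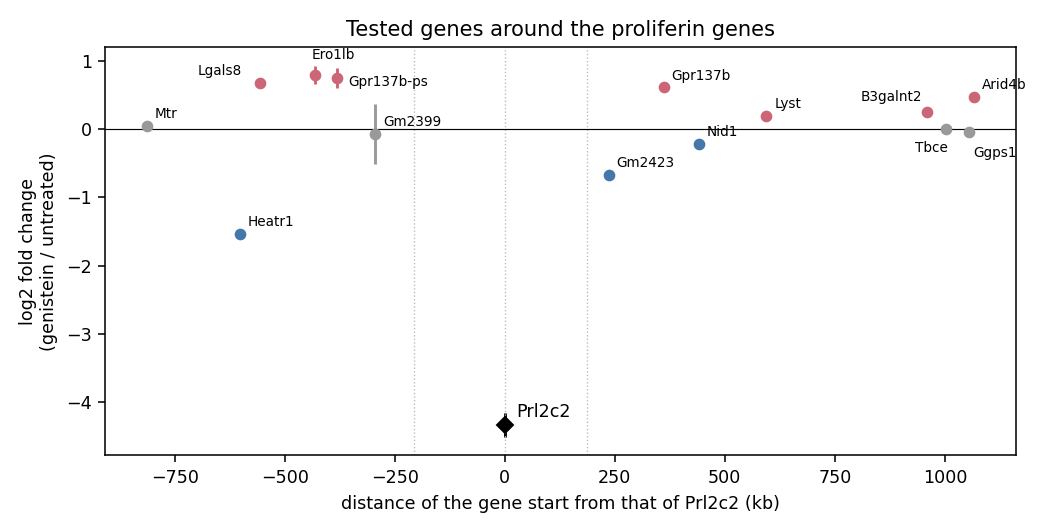
Log2 fold change of genistein over untreated (vertical axis; bars are standard errors) of the 14 tested genes within 1 Mb of a proliferin gene against the distance of their start from that of Prl2c2 in kilobases; dotted lines mark the 3 proliferin genes. Prl2c2 (black diamond, -4.33) lies below its neighbours, which range from -1.54 to 0.79.

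The genes whose levels followed the proliferin sum most closely were histone genes. Likeness was the Euclidean distance between log2 CPM values over the 4 libraries, each gene centred on its own mean, with 0.1 CPM added. It mostly measures the step between 2 pairs of libraries, so it is a description without a test. The 5 nearest of the named genes were Hist1h2ap (distance 0.38), Hist1h1a (0.44), Hist1h2ab (0.74), Hist1h2ae (0.84) and Hist1h2ah (0.84), which encode replication-dependent linker and H2A histones on the same chromosome. Hist1h2ap had normalised counts of 569 and 715 in untreated and 32.8 and 18.2 in genistein-exposed cells, with a log2 fold change of -4.63. The others had log2 fold changes of -4.29, -3.66, -3.49 and -3.52 and levels above that of the proliferin sum in every library. Like the proliferins, H2A histone genes are families of near-identical copies, so single values are uncertain.

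**Figure D5:**
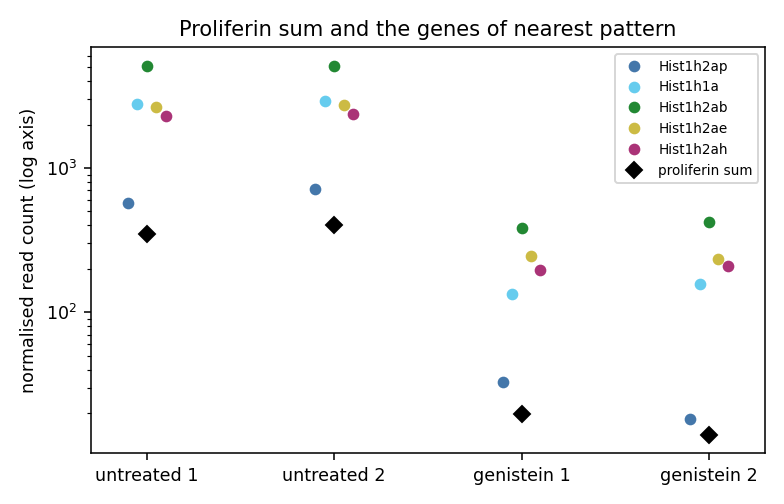
Normalised read counts (log axis) in the 4 libraries for the proliferin sum (black diamonds) and the 5 genes of nearest pattern. The sum goes from 352 and 403 in the untreated libraries to 19.7 and 14.2 in the genistein libraries, and Hist1h2ap lies closest to it.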

How the data were processed

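The authors trimmed paired reads of 150 bases with Trim Galore 0.4.0, aligned them to mm10 with STAR 2.5.2, keeping reads with up to 100 alignments, and counted them over GENCODE M9 genes and repeat subfamilies with TEtranscripts 1.5.1. The deposited values are raw counts, whole and not normalised, and the strand setting of the counter is not given in the sources used here. Library totals were 28591958 to 31464284 counts. One unnamed entry, 0.00208% to 0.00314% of a library, was left out.

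Counts of genes and repeats were fitted together with edgeR 4.0.16 in R 4.3.3: filterByExpr by group with a minimum count of 10 (16240 genes and 1118 repeats kept), TMM scaling and quasi-likelihood F tests, whose p-values were adjusted by Benjamini-Hochberg across the 17358 kept entries. The standard error is the log2 fold change divided by the square root of F. The sum of the proliferin genes replaced them as 1 row with the same scaled library sizes. With 2 libraries against 2, an exact permutation test cannot go below a p of 0.333. Poisson and Wilson intervals and floors cover counting error only, since PCR copies were not marked by molecular identifiers.

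The named genes are the proliferin genes and those of matching sequence (blastn 2.17.0, at least 90% identity over at least 80% of a transcript), in each tested list the 4 largest called changes and up to 3 more of highest level that were not called, Igf2r, Nr3c1 and Jun, up to 3 called neighbours in each direction and the nearest 2 on each side, and the 5 genes of most similar pattern, leaving out pseudogenes and predicted genes unless they match; Plac1, Krt14, Gm2423, Prl7a1 and markers at or near 0 counts were added after their values were seen, and 1 other marker is not reported here. The genes, lists and tests were chosen with earlier results of these data known. Alternatives were other scalings and filters, DESeq2 1.42.0, dropping each library and a replicate block.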

Additional observations from a re-analysis of the deposited data

How the results depend on the processing

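Prl2c2 and the proliferin sum were lower with genistein in every fit. Leaving out each library in turn gave log2 fold changes from -4.59 to -4.12 for Prl2c2 and from -4.72 to -4.25 for the sum, the most negative without genistein 1 in both. The fitted value of Prl2c3 rests on a prior count because its genistein counts are 0, and it was -8.00 in edgeR, -7.48 with DESeq2 and from -8.08 to -7.95 with a library left out. The sum without Prl2c2 is Prl2c3 alone, at -8.00. No value could be fitted for Prl2c5, which had no counts.

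Requiring all 3 thresholds of the study lowered the calls by construction, from 7 to 0 receptor and relay genes, 9 to 1 AP-1 and glucocorticoid receptor genes, 11 to 1 mitogen receptor and relay genes, 11 to 2 blood vessel regulators, 7 to 1 fibroblast markers and 10 to 1 neighbours. Of 380 values of the 38 other named genes under the alternatives, 376 kept their direction and side of the threshold. The others were Prkca, 0.0056 with library totals alone, Angptl4, -0.017 without genistein 1 (up to 0.45 without genistein 2), and Fosb, 0.75 without genistein 1 and 1.20 with DESeq2, where it did not pass; the cause was not tested. The replicate block left the sum at -4.46 and the calls in each list unchanged in number. Libraries of the same number deviated from their group means with a correlation of -0.03. With 2 libraries in a group, this value is the same for both pairs by construction. A pairing by number was not seen in it. Depth limits Prl2c3 and Prl2c5, which had few or no reads.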
